A study of Homo sapiens with 7 samples.

Results

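The SOX genes other than SOX2 were followed in H9 human embryonic stem cells. The 10 members were SOX1, SOX3, SOX4, SOX8, SOX9, SOX11, SOX15, SOX17, SOX18 and SOX21, taken by symbol from the 59251 rows of the count table. All 10 were found, and all were among the 26062 genes that passed the filter on low counts. SOX1 passed it only through the DJL1 libraries, the group where it was high. H9 is an established pluripotent line that was kept in RSeT, a medium for the naive state. DJL1 cells (n = 3 libraries) were transfected with the guide RNA plasmids named DJL1, and CTRL cells (n = 4 libraries) are the transfection controls. The sources used here name neither the guides of the CTRL cells nor the effector protein. The labels' protocols mention a cell sort at harvest, whereas the design text has the cells going straight to RNA extraction, so whether untransfected cells were removed is not known. Both groups carried 10 nM DZNep, an inhibitor that lowers histone methylation, and 5 nM TSA, a histone deacetylase inhibitor, and both received the CEPT survival cocktail for the initial 16 h. RNA was taken at 48 h, so every value below comes from cells under chromatin inhibitors. The study concerns LINE1 elements beside the ribosomal DNA arrays and the organization of the nucleolus, and the question here is how the SOX genes differed between DJL1 and CTRL cells.

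SOX proteins are transcription factors that bind the minor groove of DNA through an HMG box related to that of SRY, and bend it. They are sorted by sequence into subgroups. SOX2, of subgroup B1, pairs with OCT4 to hold the pluripotent state, and most of the others are known as regulators of particular lineages. Many of their genes are short, have CpG-rich starts and are held by Polycomb marks in pluripotent cells.

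Libraries held 34634882 to 37795742 counts in DJL1 and 62277489 to 76691997 counts in CTRL, so every CTRL library was the deeper. Variation among libraries (edgeR's biological coefficient of variation) was 13.8% in DJL1 and 3.46% in CTRL. Depth and spread moved with the group, and no batch is given, so differences in library preparation cannot be told apart from those of the transfection. Markers of the labelled cell type were present in all libraries. POU5F1, the gene for OCT4, stood at 5354 ± 269 CPM in DJL1 and 5324 ± 73.2 CPM in CTRL (SD, n = 3 and 4). Of 10 such markers it was the 1 not called by the test described below. Of the others, 7 were lower in DJL1 and 2 higher. CPM are counts per 1000000 counts after TMM scaling.

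Of the 10 SOX genes, 8 were higher in DJL1, 1 was lower (SOX21) and 1 was not called (SOX11), at an adjusted p under 0.05 (quasi-likelihood test of edgeR, Benjamini-Hochberg adjustment over all 26062 tested genes). Over all tested genes, 27.0% were called higher, 25.1% lower and 52.0% in either direction. An increase of at least 2-fold was called for 5 members (SOX1, SOX3, SOX9, SOX17 and SOX18) and for 10.7% of all tested genes. In 9 of the 10 no DJL1 library overlapped a CTRL library, as in 53.6% of all tested genes. The median log2 fold change, given throughout as DJL1 over CTRL, was 0.76 over the members and 0.01 over all tested genes. The members were chosen with results of these data known, so their counts are set beside these shares without a test.

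**Figure D1:**
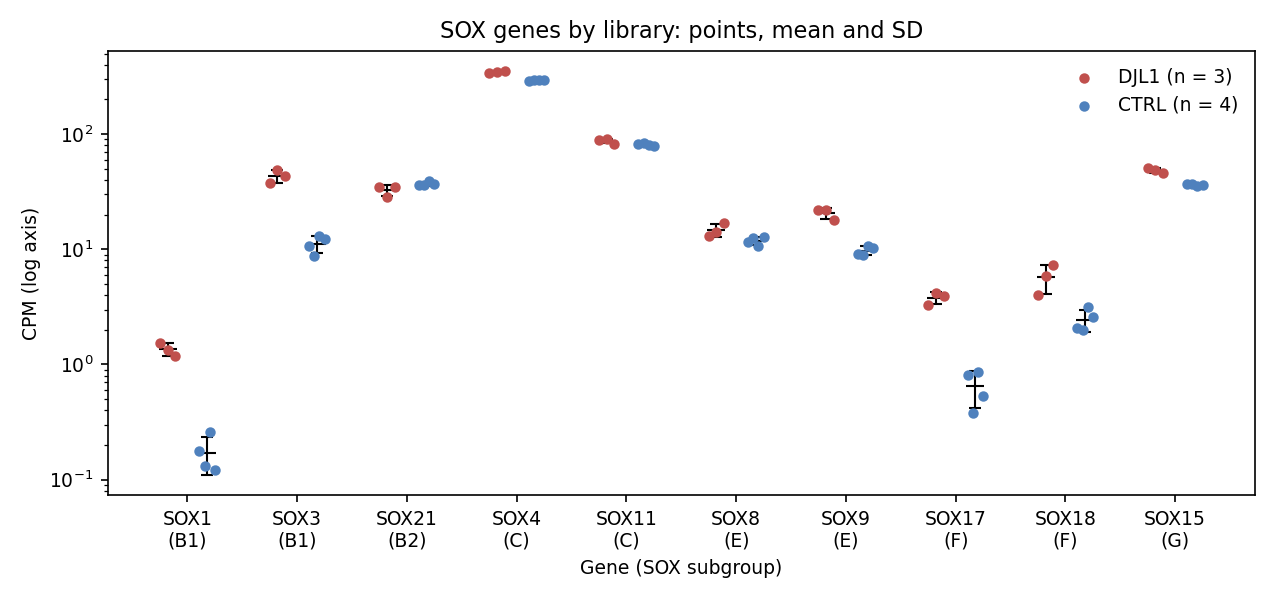
CPM on a log axis of each of the 10 SOX genes in the 3 DJL1 libraries (red, left of each pair) and the 4 CTRL libraries (blue), with the mean and SD in black and the subgroup under each symbol. The groups are far apart for SOX1, SOX3, SOX9 and SOX17. Those of SOX18 are separate, with a wide spread in DJL1, and the points of SOX11 overlap.

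Promoters of 4 of the 10 members (SOX1, SOX3, SOX4 and SOX21) matched RefSeq's table on GRCh38.p14. These 4 are shown because they were the ones matched, and they include SOX1 and SOX3, SOX21, which was called lower, and SOX4, the most abundant member. Each runs from 250 bases before the gene start to 50 bases after it, 5′ to 3′ on the strand of the gene, and capitals mark the CCAAT box (CCAAT or, on the other strand, ATTGG).
SOX1, chr13:112066899-112067198, plus strand: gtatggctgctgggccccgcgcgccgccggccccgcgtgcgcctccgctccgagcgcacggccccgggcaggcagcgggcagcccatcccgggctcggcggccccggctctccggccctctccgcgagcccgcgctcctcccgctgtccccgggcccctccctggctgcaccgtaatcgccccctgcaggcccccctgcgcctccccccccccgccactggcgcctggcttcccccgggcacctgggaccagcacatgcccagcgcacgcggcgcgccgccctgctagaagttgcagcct
SOX3, chrX:140505020-140505319, minus strand: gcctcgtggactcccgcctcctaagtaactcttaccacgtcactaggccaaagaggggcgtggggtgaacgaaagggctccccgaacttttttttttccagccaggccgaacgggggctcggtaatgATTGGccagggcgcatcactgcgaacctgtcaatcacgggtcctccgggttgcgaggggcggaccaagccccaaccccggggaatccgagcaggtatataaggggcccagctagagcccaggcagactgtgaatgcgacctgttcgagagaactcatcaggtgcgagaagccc
SOX21, chr13:94712496-94712795, minus strand: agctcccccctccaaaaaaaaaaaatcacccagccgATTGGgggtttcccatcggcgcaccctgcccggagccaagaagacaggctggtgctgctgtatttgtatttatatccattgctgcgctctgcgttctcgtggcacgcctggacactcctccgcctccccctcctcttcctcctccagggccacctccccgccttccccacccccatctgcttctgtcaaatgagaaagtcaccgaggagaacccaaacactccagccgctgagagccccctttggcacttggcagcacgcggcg
SOX4, chr6:21593501-21593800, plus strand: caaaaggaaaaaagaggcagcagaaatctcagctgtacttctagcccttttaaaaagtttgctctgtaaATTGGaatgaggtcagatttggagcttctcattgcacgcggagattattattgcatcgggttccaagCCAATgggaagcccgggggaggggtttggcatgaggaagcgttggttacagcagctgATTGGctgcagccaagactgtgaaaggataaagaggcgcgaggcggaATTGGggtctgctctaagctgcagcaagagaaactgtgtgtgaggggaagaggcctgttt
SOX1 held 37 CpG dinucleotides in this window, at least as many as 90.1% of the 35116 promoters of the table. SOX3 held 20, SOX21 15 and SOX4 8, against a median of 14 over the table. A CCAAT box stood in 34.6% of all promoters. SOX4 had 4 of them, their first base in reading direction 181, 114, 57 and 10 bases before the start, and 0.991% of all promoters had at least 4. SOX3 had 1, at 123 bases before the start, SOX21 had 1, at 214 bases, and SOX1 had 0. The core SOX motif ACAAT, searched on both strands, was in none of the 4 and in 27.4% of all promoters. The exact motif TATAAA, searched on both strands, was in SOX21 alone of the 4, outside the capitals, and in 11.5% of all promoters. In SOX21 it lay on the other strand, and reads tttata above. SOX3 holds the similar tatataag on its own strand, which the exact search does not count. These letters are a description and say nothing of which factors were bound.

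Subgroup B1 was divided. SOX1 and SOX3, which with SOX2 maintain neural progenitors, were strongly higher in DJL1. SOX1 (chromosome 13, 112067149 to 112071706, GRCh38.p14, 1 exon) had 1.54, 1.34 and 1.19 CPM in DJL1 replicates 1 to 3, against 0.18, 0.13, 0.26 and 0.12 CPM in CTRL replicates 1 to 4. These values rest on 59, 47 and 44 counts in DJL1 and on 11, 10, 16 and 8 counts in CTRL. Every DJL1 library thus lay several-fold above the highest CTRL library, at a level near the floor of the assay. Too few CTRL libraries reached the filter on low counts, so SOX1 was tested only because it was high in DJL1. That limit applies wherever SOX1 is counted among the members called higher. The log2 fold change was 2.98 ± 0.35 (SE, adjusted p = 4.2e-06), the largest of the 10 members. SOX3 (chromosome X, 140502985 to 140505069, 1 exon), which also acts in the developing pituitary, had 37.8, 48.5 and 43.6 CPM in DJL1, against 10.6, 8.79, 12.9 and 12.4 CPM in CTRL. Its groups were far apart, and the log2 fold change was 1.96 ± 0.11 (SE, adjusted p = 1.4e-08). SOX2 itself was lower, at 245 ± 15.6 CPM in DJL1 and 321 ± 6.30 CPM in CTRL (SD, n = 3 and 4).

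Because SOX1 and SOX3 differed from SOX2 in direction, their counts were divided by those of SOX2 in the same library, which removes the scaling between libraries. The ratio of SOX3 to SOX2 counts was 0.153, 0.212 and 0.168 in DJL1, against 0.0326, 0.0269, 0.0412 and 0.0389 in CTRL. The mean ratio was thus 5.09 times as high in DJL1. For SOX1 the ratio to SOX2 was 0.00555 ± 0.00086 in DJL1 and 0.00054 ± 0.00020 in CTRL (SD, n = 3 and 4), which is 10.3 times as high. With 3 against 4 libraries the exact permutation test, 2-sided, cannot go below p = 0.0571 over its 35 arrangements, and both ratios gave that value (adjusted p = 0.0653 over the 8 ratios computed, an exact test). The ratios were chosen after the values were seen.

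**Figure D2:**
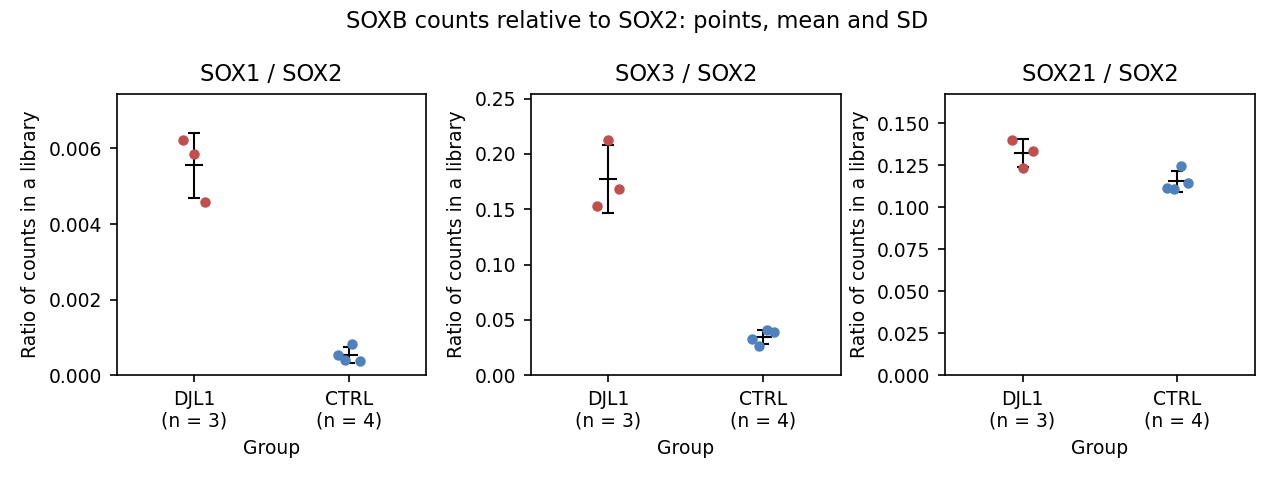
Ratio of the counts of SOX1, SOX3 and SOX21 to those of SOX2 in the same library (vertical axes from 0) for the DJL1 libraries (red, left, n = 3) and the CTRL libraries (blue, right, n = 4), with mean and SD. The groups are separate for SOX1 and SOX3 and overlap for SOX21.

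SOX21, of subgroup B2, is known as a repressor that counteracts the B1 factors in neural progenitors. It lies on chromosome 13 (94709622 to 94712545, 1 exon) and was the 1 member called lower. It had 34.6, 28.3 and 34.6 CPM in DJL1, against 36.4, 36.2, 39.15 and 36.6 CPM in CTRL. All DJL1 values lay under all CTRL values, but replicates 1 and 3 by little, and DJL1 replicate 2 stood apart on the low side. The log2 fold change was -0.19 ± 0.07 (SE, adjusted p = 0.028). The call was lost without DJL1 replicate 2 (log2 fold change -0.11, adjusted p = 0.087), without CTRL replicate 3 (-0.16, adjusted p = 0.083) and without CTRL replicate 4, and in 6 of 18 alternatives in all. Adjusted p over them ran from 0.0011 to 0.087. Relative to SOX2 the groups overlapped, with ratios of 0.132 ± 0.0081 in DJL1 and 0.115 ± 0.0065 in CTRL (SD, n = 3 and 4). SOX21-AS1, a non-coding transcript on the opposite strand, starts 171 bases from the SOX21 start and runs the other way. It had 6.27 ± 0.57 CPM in DJL1 and 5.48 ± 0.35 CPM in CTRL (log2 fold change 0.20, adjusted p = 0.15), and was not called. The count ratio of SOX21 to SOX21-AS1 was 5.80, 4.08 and 5.85 in DJL1, against 6.83, 6.90, 6.53 and 6.86 in CTRL, without overlap.

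Subgroup C differed little. SOX4 and SOX11 support neuronal and mesenchymal progenitors and are broadly expressed in the embryo. SOX4 (chromosome 6, 21593751 to 21598619, 1 exon) was the most abundant member, with 340.2, 347 and 353 CPM in DJL1, against 290.5, 294, 295 and 295 CPM in CTRL. Libraries of each group lay close together and the groups were separate, and the log2 fold change was 0.24 ± 0.04 (SE, adjusted p = 3.6e-05). SOX11 (chromosome 2, 5692384 to 5701385, 1 exon) had 88.0, 90.3 and 82.6 CPM in DJL1, against 82.0, 83.3, 79.8 and 78.7 CPM in CTRL. Its lowest DJL1 library lay under the highest CTRL library. The log2 fold change was 0.10 with a 95% interval of 0.01 to 0.20 (adjusted p = 0.058). SOX11 passed the threshold under 4 of 18 alternatives, among them the fit without DJL1 replicate 3 (log2 fold change 0.13), with adjusted p from 0.014 to 0.28 over all of them. In the authors' deposited table SOX11 has a log2 fold change of 0.12 and an adjusted p of 0.031.

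Subgroup E holds SOX8 and SOX9, which act in the neural crest and the testis, and SOX9 is the master regulator of cartilage. SOX9 (chromosome 17, 72121020 to 72126416) had 21.9, 22.1 and 18.1 CPM in DJL1, against 9.15, 8.89, 10.7 and 10.2 CPM in CTRL. Even the lowest DJL1 library lay well above every CTRL library, and the log2 fold change was 1.09 ± 0.09 (SE, adjusted p = 9.0e-08). SOX8 (chromosome 16, 981770 to 986979) had 13.2, 14.1 and 16.7 CPM in DJL1, against 11.6, 12.6, 10.7 and 12.7 CPM in CTRL. The groups were separate only narrowly, with DJL1 replicate 3 highest. The log2 fold change was 0.30 ± 0.09 (SE, adjusted p = 0.013), and without DJL1 replicate 3 it was 0.19 and the call was lost (adjusted p = 0.096). The count ratio of SOX9 to SOX8 was 1.67, 1.56 and 1.08 in DJL1, against 0.789, 0.707, 0.998 and 0.801 in CTRL. SOX9 thus had the more counts in each DJL1 library. SOX8 had the more in CTRL, except that CTRL replicate 3 was a near tie (666 counts of SOX9 and 667 of SOX8).

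Both members of subgroup F were higher. SOX17, a regulator of endoderm and of human primordial germ cells, had 3.29, 4.14 and 3.94 CPM in DJL1, against 0.82, 0.38, 0.85 and 0.53 CPM in CTRL. It lies on chromosome 8 (54457935 to 54460892). The counts behind it were 126, 145 and 146 in DJL1 and 51, 29, 53 and 35 in CTRL. No DJL1 library came near the CTRL range, and the log2 fold change was 2.56 ± 0.25 (SE, adjusted p = 4.4e-07). SOX18 (chromosome 20, 64047582 to 64049639), a regulator of blood and lymphatic vessel endothelium, had 4.05, 5.91 and 7.28 CPM in DJL1, against 2.09, 1.97, 3.17 and 2.59 CPM in CTRL. The DJL1 libraries were spread widely but stayed above CTRL, and the log2 fold change was 1.23 ± 0.20 (SE, adjusted p = 8.7e-05).

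SOX15, the sole gene of subgroup G and a factor of human primordial germ cells, was moderately higher. It had 50.4, 49.2 and 45.5 CPM in DJL1, against 36.8, 36.5, 35.4 and 35.8 CPM in CTRL. The groups were clearly separate, and the log2 fold change was 0.42 ± 0.05 (SE, adjusted p = 3.6e-06). SOX15 (chromosome 17, 7588178 to 7590094) overlaps MPDU1 on the opposite strand in GENCODE release 29. MPDU1 went the other way, at 30.4 ± 1.55 CPM in DJL1 and 42.1 ± 0.91 CPM in CTRL (log2 fold change -0.47, adjusted p = 1.8e-06). The strand setting of the counting is not given in the sources used here, so reads of such pairs may be shared. The same holds for SOX9 and SOX9-AS1, although SOX9-AS1 had at most 9 counts in a library. SOX4 also overlaps AL512380.2 on the opposite strand. SOX11 overlaps AC108025.2 on its own strand, where no strand setting separates the reads.

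**Figure D3:**
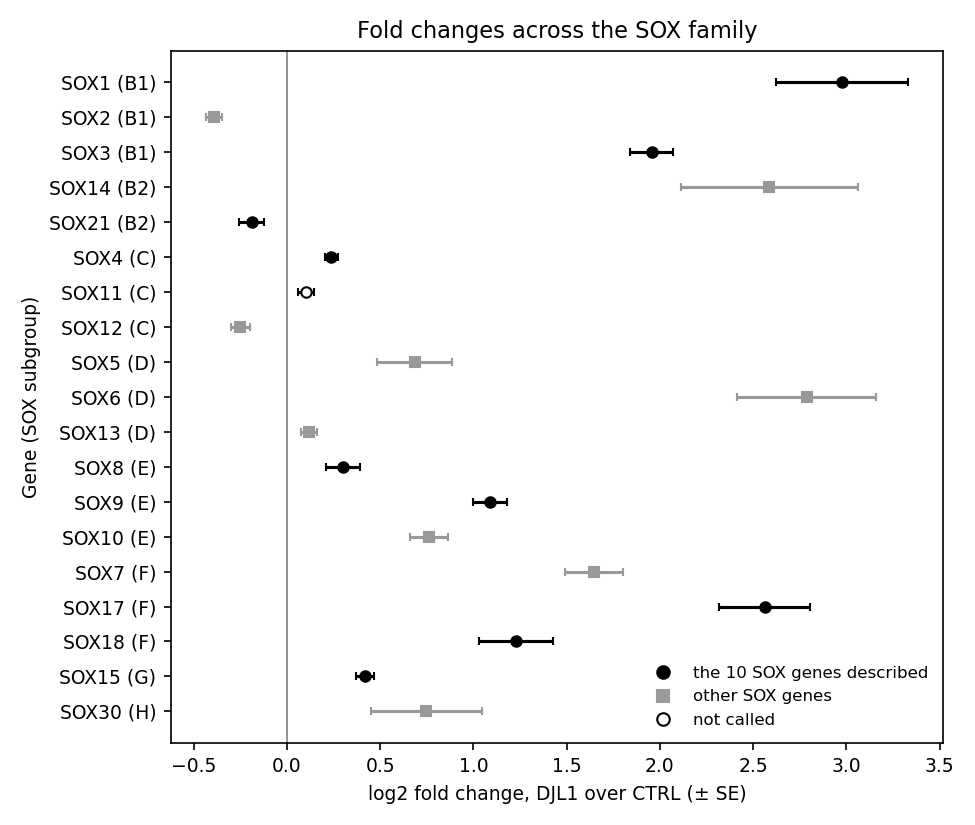
Log2 fold change of DJL1 over CTRL with its SE (horizontal axis) for the 10 SOX genes described (black circles, open where not called) and 9 other SOX genes (grey squares), ordered by subgroup. SOX2, SOX12 and SOX21 lie left of 0, and SOX1, SOX6, SOX14 and SOX17 lie farthest to the right.

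Of the 9 other SOX genes, all of them tested, 7 were higher and 2 lower, with a median log2 fold change of 0.75. Over all tested genes, 27.0% were called higher and 25.1% lower. The lower ones were SOX2 (log2 fold change -0.39) and SOX12, the third subgroup C gene (-0.25). SOX7, a subgroup F partner of SOX17 and SOX18 in endothelium and endoderm, was higher at 7.28 ± 1.62 CPM in DJL1 and 2.32 ± 0.29 CPM in CTRL (SD, n = 3 and 4, log2 fold change 1.65). SOX6, which with SOX5 assists SOX9 in cartilage, was higher at 1.21 ± 0.07 CPM in DJL1 and 0.17 ± 0.07 CPM in CTRL (log2 fold change 2.79), and SOX10, the neural crest and glial factor of subgroup E, had a log2 fold change of 0.76. SOX14, of subgroup B2 like SOX21, had a log2 fold change of 2.59 ± 0.47 (SE). Like SOX1, SOX6 and SOX14 passed the filter on low counts only through the DJL1 libraries. The remaining ones were SOX5 (0.68), SOX30 (0.75) and SOX13 (0.12). SOX13 and SOX30 were lost under 10 and 12 of their alternatives, and SOX5 without DJL1 replicate 1 (adjusted p = 0.071).

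The 10 members and SOX2 were ordered by level per kb of exon (CPM divided by the exonic length in GENCODE release 29), as counts alone favour long transcripts. SOX2 led in both groups, at 97.6 ± 6.19 CPM per kb in DJL1 and 128 ± 2.51 in CTRL. SOX4 (59.2 ± 1.08 in DJL1 and 50.2 ± 0.38 in CTRL) and SOX15 (31.4 ± 1.65 in DJL1 and 23.4 ± 0.42 in CTRL) came next. SOX3 ranked 4 in DJL1, at 20.3 ± 2.50 CPM per kb, and 6 in CTRL, at 5.24 ± 0.88, there behind SOX21 and SOX11. SOX21 had 11.7 ± 1.32 CPM per kb in DJL1 and 13.4 ± 0.50 in CTRL, and SOX11 had 9.98 ± 0.45 in DJL1 and 9.29 ± 0.24 in CTRL. In DJL1 the ranges of these neighbours overlapped, and in CTRL they did not. SOX9 (5.26 ± 0.58 in DJL1 and 2.47 ± 0.22 in CTRL) ranked above SOX8 (3.31 ± 0.42 in DJL1 and 2.68 ± 0.21 in CTRL) in DJL1. In CTRL it ranked below SOX8, with overlapping ranges. SOX18 (3.08 ± 0.87 in DJL1 and 1.32 ± 0.29 in CTRL) overlapped SOX8 in DJL1. SOX17 (1.62 ± 0.19 in DJL1 and 0.28 ± 0.10 in CTRL) and SOX1 (0.48 ± 0.06 in DJL1 and 0.06 ± 0.02 in CTRL) were the lowest in both groups. Since the annotation used for counting is not given, lengths are approximate. Over the longer RefSeq span SOX1 had 0.297 CPM per kb in DJL1 and 0.0377 in CTRL. Over the shorter RefSeq span SOX4 had 71.2 CPM per kb in DJL1 and 60.3 in CTRL.

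The share of genes called differed with level, so the members were set beside tested genes of like level. Of the 7768 tested genes under 1 CPM on average, where SOX1 lies, 19.6% were called higher and 5.25% lower. Their median log2 fold change was 0.24. At this level a gene can pass the filter on low counts through 1 group alone, as SOX1 did through DJL1. How far the filter shaped these shares and this median was not tested. Of the 6508 genes from 1 to 8 CPM, which hold SOX17 and SOX18, 35.8% were higher and 17.0% lower (median 0.15). Of the 8140 genes from 8 to 64 CPM, which hold SOX3, SOX8, SOX9, SOX15 and SOX21, 28.9% were higher and 38.3% lower (median -0.06). Above 64 CPM, where SOX4 and SOX11 lie, 22.8% of 3646 genes were higher and 52.1% lower, and the median log2 fold change was -0.12.

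The members also differed in how much they varied within a group. SOX4 varied least, with a coefficient of variation of 1.83% in DJL1 and 0.764% in CTRL, where counting error alone gives 0.885% and 0.715% at these depths. SOX18 varied most in DJL1 (28.3%, with a counting error of 6.89%) and SOX1 in CTRL (36.1%, with a counting error of 29.8%). SOX17 had 11.7% in DJL1 and 35.3% in CTRL, with counting errors of 8.48% and 15.4%. The spread of SOX3 was 12.3% in DJL1 and 16.8% in CTRL, well above its counting errors of 2.51% and 3.68%.

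Genes commonly read beside these SOX factors were counted next, from lists chosen with earlier results of these data known. The counts of these lists and of those below stand beside 27.0% called higher and 25.1% lower over all tested genes, without a test. Of 16 endoderm genes, 13 were higher and 0 lower by the same edgeR test (0 also at an unadjusted p under 0.05, by DESeq2 and by limma-voom), with a median log2 fold change of 1.11. EOMES, a T-box factor of mesendoderm, had 3.50 ± 0.46 CPM in DJL1 and 0.65 ± 0.12 CPM in CTRL. The zinc finger factors GATA4 and GATA6 had log2 fold changes of 2.49 and 1.21, and the chemokine receptor gene CXCR4 of 1.01. MIXL1 (0.11), PDGFRA (-0.05) and APOA1 (-0.21) were not called. Of 12 germ cell genes read with SOX17 and SOX15, 6 were higher and 2 lower (median 0.42). PRDM1, which encodes BLIMP1, was at 41.5 ± 6.78 CPM in DJL1 and 13.6 ± 1.36 CPM in CTRL, KLF4 had a log2 fold change of 0.68 and TFAP2A of 1.91, whereas PDPN (-0.63) and KIT (-0.39) were the lower members. The germ cell factor TFAP2C (-0.03) was not called. The germ cell median was 0.25 without DJL1 replicate 3.

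Of 18 neural genes read with SOX1, SOX3, SOX21, SOX4 and SOX11, 14 were higher and 1 (SOX2) lower, with a median of 1.04. PAX6, a regulator of the neural tube and eye, was at 8.47 ± 0.74 CPM in DJL1 and 2.25 ± 0.35 CPM in CTRL. ZIC1, a zinc finger factor of the dorsal neural tube, had a log2 fold change of 2.33. With a filter of 1 CPM in at least 3 libraries the neural median was 0.56. Of 12 neural crest genes 9 were higher and 1 lower (median 1.42). MSX2, MSX1 and SNAI2 had log2 fold changes of 1.92, 1.73 and 1.58, and the nerve growth factor receptor gene NGFR of 1.25. The lower one was FOXD3, also a pluripotency factor, at 6.495 ± 0.80 CPM in DJL1 and 10.5 ± 0.68 CPM in CTRL, and 2 were lower without DJL1 replicate 3.

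Of 14 cartilage genes known to respond to SOX9, 12 were higher and 1 lower, with a median of 0.56. ACAN, the gene for aggrecan, had 20.2 ± 3.81 CPM in DJL1 and 12.1 ± 0.83 CPM in CTRL, COL9A3 had a log2 fold change of 0.42 and SOX6 of 2.79. CNMD, which encodes chondromodulin, was the lower one (-0.46). Of 14 endothelial genes 11 were tested, with 5 higher and 2 lower and a median of 0.23. PROX1, a regulator of lymphatic identity, had 14.6 ± 2.29 CPM in DJL1 and 8.53 ± 0.16 CPM in CTRL, and ERG, DLL4 and VWF had log2 fold changes of 2.31, 0.90 and 0.50. The endothelial median rested on single libraries, at 0.41 without DJL1 replicate 1, 0.04 without DJL1 replicate 3, 0.14 without CTRL replicate 2 and 0.40 without CTRL replicate 3. The lower calls were KDR (-0.15, adjusted p = 0.025) and FLT1 (-0.20, adjusted p = 0.045), receptor genes for VEGF. Both were lost without CTRL replicate 1, 3 or 4, with the 1 CPM filter, at a threshold of 0.01 and with a variance for each group, and 1 of them was lost without DJL1 replicate 1 or 3. CDH5, EMCN and VCAM1 were too low to test, and PECAM1 was at 0.30 ± 0.08 CPM in DJL1 and 0.44 ± 0.12 CPM in CTRL (not called).

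**Figure D4:**
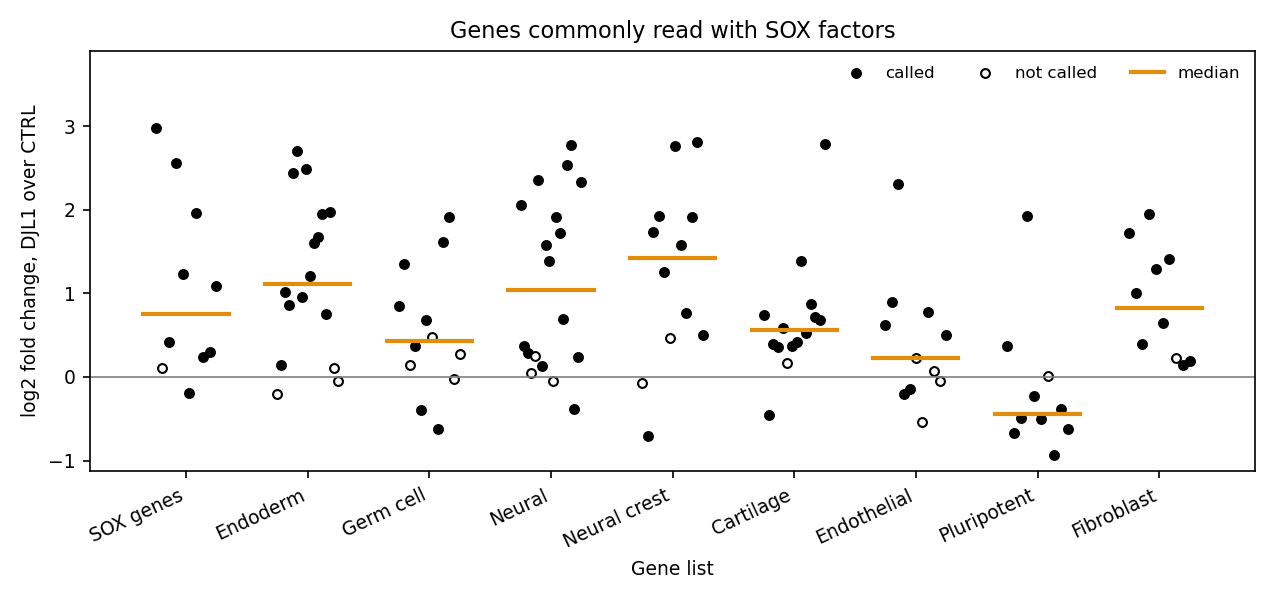
Log2 fold change of DJL1 over CTRL (vertical axis) for each tested gene of the SOX members and of 8 gene lists, filled where called and open where not, with the median of each list in orange. Medians lie above 0 except that of the pluripotent markers, at -0.44.

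Of 12 fibroblast markers 10 were tested, with 9 higher and 0 lower (0 also at an unadjusted p under 0.05, by DESeq2 and by limma-voom), and their summed level was 1363 to 1460 CPM in DJL1, against 920.6 to 950.5 CPM in CTRL. COL1A1 had a log2 fold change of 1.01, FN1 of 0.65, FBN1 of 1.29 and ACTA2 of 1.71. DCN and LUM, too low to test, were near 0, at 0.06 and 0.12 CPM in DJL1 and 0.01 and 0.02 CPM in CTRL. Of 10 pluripotent markers 7 were lower and 2 higher, with a summed level of 7648 to 8375 CPM in DJL1, against 8749 to 8946 CPM in CTRL. PRDM14, DPPA4, TDGF1 and DPPA5 had log2 fold changes of -0.93, -0.67, -0.63 and -0.49. The higher ones were KLF17, at 9.36 ± 3.37 CPM in DJL1 and 2.48 ± 0.64 CPM in CTRL (log2 fold change 1.92), and DPPA3 (0.37). KLF17 is a marker of the naive state, as is DPPA5, which was lower. In bulk RNA a change in the number of cells of a type cannot be told apart from a change in RNA per cell, and the part of these markers in the SOX results was not tested. The lists share genes. SOX2 is on the neural and pluripotent lists, SOX5 and SOX6 on that of cartilage and SOX10 on that of the neural crest, besides being counted among the other SOX genes. TFAP2A is on the germ cell and neural crest lists, and DPPA3 on the germ cell and pluripotent lists.

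Among non-coding transcripts beside SOX genes, 3 of the 7 in the table could be tested, with a median log2 fold change of 0.20 (0.11 without DJL1 replicate 2). CASC15, next to SOX4, was higher at 9.51 ± 1.16 CPM in DJL1 and 6.81 ± 0.46 CPM in CTRL (log2 fold change 0.48). SOX2-OT, which spans SOX2 on the same strand, was lower at 3.34 ± 0.36 CPM in DJL1 and 4.54 ± 0.31 CPM in CTRL (log2 fold change -0.44), like SOX2. Reads where SOX2-OT and SOX2 overlap may not be told apart. SOX21-AS1 is given above.

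Of the called members with a mean of at least 1 CPM, SOX17 had the largest fold change, and the genes closest to its profile over the 7 libraries were sought among 11623 called genes. By the root mean square difference of log2 CPM centred on CTRL, the closest were KCNK2 (0.216), a potassium channel gene, DMRT2 (0.23), a DM-domain factor gene, and ISLR2 (0.234). Their log2 fold changes were 2.61, 2.71 and 2.59, against 2.56 for SOX17. These lie close because the genes were picked by that distance, so the likeness is no separate result. ISLR2 stood at 13.6 ± 1.39 CPM in DJL1 and 2.26 ± 0.37 CPM in CTRL.

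The changes that were small or close to the threshold were compared over the alternatives. SOX4 kept its call in all 18, with log2 fold changes from 0.21 to 0.27, and so did SOX15, from 0.38 to 0.45. SOX1, SOX3, SOX9, SOX17 and SOX18 also kept theirs in all 18. The authors' deposited table gave the same direction for all 10 genes, with log2 fold changes of 3.02 for SOX1, 2.65 for SOX17 and 1.99 for SOX3, and called all 10 at an adjusted p under 0.05.

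**Figure D5:**
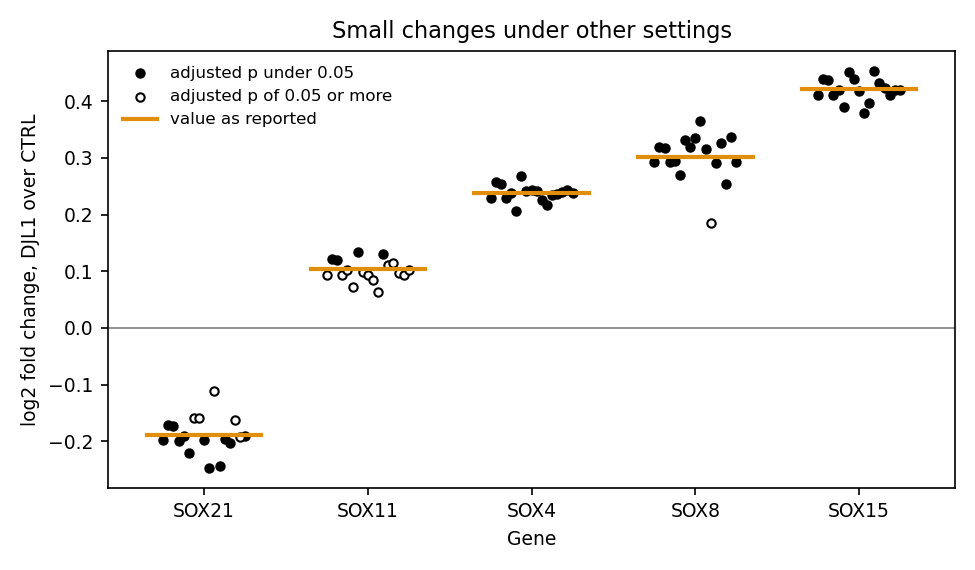
Log2 fold change of DJL1 over CTRL (vertical axis) of the 5 SOX genes with the smallest changes, with 1 point for each alternative fit (filled where the adjusted p was under 0.05) and the reported value in orange. SOX21 and SOX11 have points on both sides of the threshold, SOX8 has 1 open point, and no point crosses 0.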

How the data were processed

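The authors deposited raw counts per gene symbol for 7 libraries, used here unchanged, and a table of log values whose base and transform are not given (taken as log2 on deposit and not used). The authors' deposited comparison table gives log2 fold changes, p-values and adjusted p-values, and its t and log odds scores were not used. Per the submitters' processing notes, the tools were featureCounts (Subread 1.5.0), HISAT2 2.2.1 and Trim Galore 0.4.0, and the build was GRCh38. Libraries were made from poly(A) RNA with a strand-specific kit, per the labels' protocols.

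Genes passing filterByExpr (minimum count 10, minimum total 15) were scaled by TMM and tested with edgeR 4.0.16 (quasi-likelihood, robust, 2-sided, R 4.3.3), with limma 3.58.1 and DESeq2 1.42.0 as alternatives. Each SE is the size of the fold change over the square root of F. The fit was checked on simulated counts. Sample titles gave the groups. Whether replicates were separate cultures is not stated, so p-values reflect only how these samples varied, perhaps for technical reasons. No 2 libraries agreed within counting noise.

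The members, gene lists and rules were chosen with earlier results of these data known. The text describes all 10 members and names up to 4 genes of each list by smallest adjusted p, others to make a small count explicit. One gene that the rule names is not reported here. Sequences are RefSeq's on GRCh38.p14, exon lengths GENCODE release 29. Alternatives were other scalings, filters and tests, thinned counts, a threshold of 0.01, each library left out and the replicate number as a block.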

Additional observations from a re-analysis of the deposited data

Results flagged for a closer look

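Of 19 SOX genes examined in the 4 CTRL libraries, SOX21 alone had a library far from the other 3. CTRL replicate 3 stood at 39.15 CPM while the others lay between 36.2 and 36.6 CPM, a gap that was 0.877 of the whole range, above Dixon's 95% limit for 4 samples. About 1 group in 20 passes that limit by chance.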

How the results depend on the processing

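Over 18 alternatives the count of members called higher was 7 to 9, against 8, and no member changed direction. The count called lower, 1 (SOX21), was 0 with a filter of 1 CPM in at least 3 libraries, with counts thinned to the smallest library and at a threshold of 0.01, and 0 to 1 when a library was left out (0 without DJL1 replicate 2, CTRL replicate 3 or CTRL replicate 4). The other SOX genes called numbered 7 to 9, against 9. Medians of the lists moved in places, and the cause was not tested. Without a filter they were 0.31 for neighbouring transcripts (0.20 as reported), 0.39 for germ cell, 0.33 for endothelial and 1.12 for fibroblast genes. With the 1 CPM filter they were 0.35 for germ cell, 0.56 for neural, 0.39 for endothelial and 0.68 for fibroblast genes. Thinned counts gave 0.50 for germ cell and 0.59 for cartilage genes, and limma-voom gave 0.31 for germ cell genes (0.31 also with a variance for each group, an alternative chosen after seeing the data). Leaving out a library gave 0.11 to 0.24 for neighbouring transcripts, 0.25 to 0.57 for germ cell, 0.78 to 1.19 for neural, 1.26 to 1.49 for neural crest, 0.49 to 0.60 for cartilage and 0.043 to 0.41 for endothelial genes.

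Same-numbered libraries did not deviate together (correlations of -0.01, -0.04 and -0.03), so no pairing by number was seen. These correlations cannot show whether such libraries shared a culture or batch, which is not stated. With the replicate block, 8 members were higher and 1 lower, the germ cell median was 0.31, and the lower calls of KDR and FLT1 were lost. Counts limit SOX1 most, with 44 to 59 in DJL1 and 8 to 16 in the deeper CTRL libraries.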
